A study of Mus musculus with 31 samples.

Results

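The genes for the translation initiation factors (symbols starting Eif) and elongation factors (Eef) were followed in mouse cortex through ribosome footprints and mRNA. The members were the symbols that start with Eif or Eef and a digit, without Eif4b and Eef2k, whose mean mRNA level in wild-type cortex was at least 1 CPM (reads scaled to a library of 1000000). Of 63 symbols with such a name, 61 remained without that pair and 60 met the minimum, out of 20436 symbols counted. The 1 symbol below it, Eif4e1b, was at 0 CPM, and the members just above it were Eif4ebp1 at 2.78, Eif4ebp3 at 2.94 and Eif2ak2 at 3.21 CPM. All 60 members passed the low-count filter in every measure.

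Cortices came from mice at postnatal days 29 to 34 of 4 genotypes: wild type (WT), Fmr1-deficient (FXS, the mouse model of fragile X syndrome), Rps6kb1-deficient (S6K1, lacking the kinase S6K1), and deficient in both genes (DKO). Ribosome footprints, the stretches of coding sequence covered by a ribosome, came from 4 WT, 5 FXS, 3 S6K1 and 3 DKO libraries, and polyA mRNA from 4 libraries of each genotype. The labels give no strain, sex, or design of the deletions, and do not say whether each library is a separate animal or whether footprints and mRNA share animals, so p-values measure the spread between libraries, which may in part be technical. Translational efficiency (TE) is the footprint level over the mRNA level of a gene, and since both are read over the same coding sequence, gene length cancels from it.

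The libraries held 12.1 to 17.3 M mRNA reads and 16.6 to 34.9 M footprints (M, 1000000 reads), and the members took 1.71 to 2.10% and 1.52 to 1.72% of them. Fmr1 footprints were lower in FXS (log2 fold change -3.88 against WT) and DKO (-3.69), and Rps6kb1 footprints were lower in S6K1 (-1.63) and DKO (-1.44), so the labels held. Neuronal markers were present in every library. Footprints of 8 oligodendrocyte markers summed to 2757 to 3993 CPM in WT, 1757 to 2660 in FXS, 2580 to 2790 in S6K1 and 1859 to 2615 in DKO, and 3 of the 8 were called lower in FXS, 0 in S6K1 and 3 in DKO. The same markers had no mRNA called in any mutant, and 1 had a lower TE in FXS, 1 in S6K1 and 6 in DKO. Footprint libraries were made in 4 batches, and batch 1 holds 1 DKO and 1 S6K1 library with no WT or FXS beside them. Those batch 1 libraries stood apart from the rest for several members, as their values show. Batch was therefore a term in every fit.

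Initiation begins when eIF2 brings the initiator tRNA to the small ribosomal subunit, helped by eIF1, eIF1A, eIF3 and eIF5, while eIF4E binds the mRNA cap and, with the scaffold eIF4G and the helicase eIF4A, brings the subunit to the message. eIF2B recharges eIF2 with GTP, the eIF2 kinases stop that step by phosphorylating eIF2 alpha, and the 4E-BPs hold eIF4E away from eIF4G. In elongation, eEF1A delivers aminoacyl tRNA, the eEF1B subunits recharge it with GTP, and eEF2 moves the ribosome along. Many mRNAs of elongation factors and some of eIF3 are known TOP mRNAs, which start with a C followed by a run of C and T bases (a terminal oligopyrimidine) and whose translation follows mTORC1, the kinase complex upstream of S6K1. FMRP, the product of Fmr1, is an RNA-binding protein known for repressing translation in neurons.

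In WT cortex the members spanned a wide range of TE, and known TOP mRNAs sat low in it. The median log2 TE of the 60 members was -0.20, against -0.35 for the 13654 genes with both measures, and 25 of the 60 lay below that overall median. The 8 members listed as known TOP mRNAs (Eef1a1, Eef1b2, Eef1d, Eef1g, Eef2, Eif3e, Eif3f and Eif3h) had a median of -0.84, and 7 of them lay below the overall median. The 4 eIF2 kinases had a median of -0.97 and the 4 genes of eIF4E-binding proteins -0.93. The pair of eIF5A genes, whose product helps ribosomes through stretches they read slowly, had the highest median of the role groups, 1.19.

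At the low end stood Eif4ebp3, a 4E-BP, at a log2 TE of -3.01 ± 0.24 (SE) with a mean of only 0.359 CPM of footprints. Eif4g2, an eIF4G relative that lacks the eIF4E-binding part, followed at -2.11 ± 0.12, with 1409 CPM of mRNA against 326 CPM of footprints. Eef1g, the gamma subunit of eEF1B, stood at -1.88 ± 0.087. The eIF2 kinase gene Eif2ak3 (PERK, which responds to stress of the endoplasmic reticulum) came next at -1.67 ± 0.17, followed by Eef1b2, an eEF1B subunit, at -1.63 ± 0.17. At the high end were Eif5a2 at 1.68 ± 0.26, Eif3c, a core subunit of eIF3, at 1.20 ± 0.097, and Eef1a2 at 1.04 ± 0.083. Eif2s1, which encodes eIF2 alpha, stood at 1.02 ± 0.087, and Eif6, which keeps large ribosomal subunits apart from small ones, at 0.82 ± 0.044. Of the 59 neighbouring pairs in this order, 2 lay apart by more than 2 SE, so the order is firm only over longer distances.

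**Figure D1:**
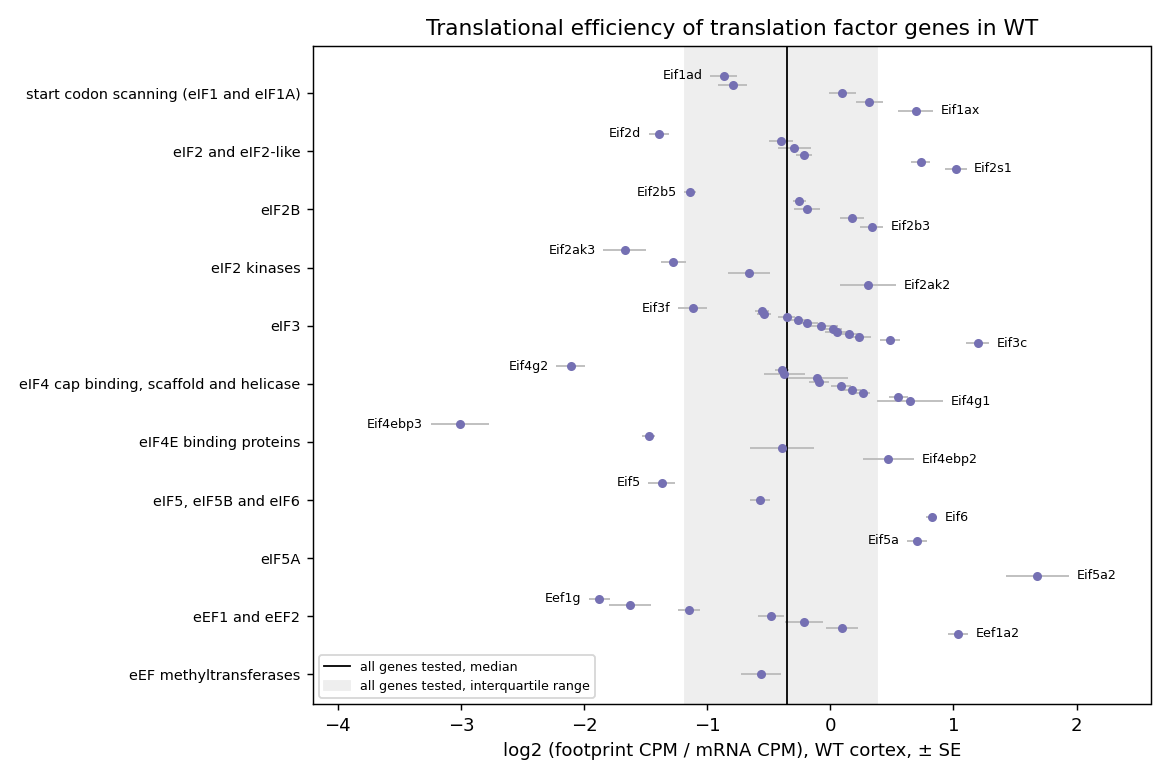
Log2 TE (footprint CPM over mRNA CPM) of the 60 members in WT, with role groups on the vertical axis, 1 dot a gene and bars of ± 1 SE; the line and grey band are the median and interquartile range of all genes tested. Eif4ebp3, Eif4g2 and Eef1g lie far left of the band and Eif5a2, Eif3c and Eef1a2 right of it.

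The 2 genes of eEF1A differed most plainly. Eef1a1, the form made in most cell types, and Eef1a2, the form of mature neurons and muscle, encode near-identical proteins. Eef1a1 mRNA was at 4534, 4669, 4241 and 4589 CPM in the WT libraries and its footprints at 2048, 1860, 1880 and 2350 CPM. Eef1a2 mRNA was at 1555, 1924, 1806 and 1901 CPM and its footprints at 3450, 3624, 3635 and 4035 CPM. The order of the genes was thus opposite in the 2 assays. The log2 ratio of Eef1a2 to Eef1a1 was between -1.54 and -1.23 in WT mRNA and between 0.75 and 0.96 in WT footprints, a difference in means of 2.19. Over all genotypes it stayed between -1.58 and -1.04 in the 16 mRNA libraries and between 0.01 and 0.96 in the 15 footprint libraries, with no overlap. The mean footprint ratio was 0.86 ± 0.11 (± SD over libraries) for WT, 0.62 ± 0.22 for FXS, 0.42 ± 0.35 for S6K1 and 0.35 ± 0.18 for DKO. These ratios carry no batch term. The lowest S6K1 library, at 0.01, and the lowest DKO library, at 0.24, were both those of batch 1, which holds no WT or FXS library. The order of the genotype means can therefore not be told apart from batch. Neither gene's TE passed the test in any genotype, and reads shared between them or with pseudogenes leave both levels uncertain. In bulk cortex, fewer cells of a type and less RNA per cell cannot be told apart.

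Other pairs of related genes, picked with their values in view, behaved unlike each other. For Eif1ax and Eif1a, which encode near-identical eIF1A proteins, the WT log2 ratio was 1.30 ± 0.15 (SD, n = 4) in mRNA and 2.80 ± 0.25 (n = 4) in footprints. For the eIF2 gamma genes Eif2s3y on the Y and Eif2s3x on the X chromosome it was -0.81 ± 0.19 in mRNA and -1.85 ± 0.23 in footprints. For the eIF4A helicase genes Eif4a2 and Eif4a1 it was 1.01 ± 0.099 in mRNA and 0.93 ± 0.099 in footprints, and these overlapped. The first 2 pairs therefore stood further apart in footprints than in mRNA, and the third kept its ratio within the spread of the libraries. Eif5a2 and Eif5a had a WT ratio of -5.02 ± 0.38 in mRNA and -4.01 ± 0.38 in footprints, so closer together. Eif1b and Eif1 had one of -2.06 ± 0.14 and -2.29 ± 0.086. In these last pairs the assays did not overlap in WT but did over all genotypes.

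The sequence around the annotated transcript start (15 bases before it and 15 from it on, RefSeq, GRCm38.p6) is given for some members whose TE stood out or that are known TOP mRNAs, because the TOP feature lies at that start. The known TOP mRNAs Eef1d, Eef1g, Eif3e and Eif3h are not shown. Capitals mark the longest run of C and T bases in each window on the gene's strand.
Eif3f: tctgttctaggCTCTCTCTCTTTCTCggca
Eef1a1: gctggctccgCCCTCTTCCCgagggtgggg
Eef1a2: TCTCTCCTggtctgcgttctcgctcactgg
Eef1b2: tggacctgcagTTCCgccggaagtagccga
Eef2: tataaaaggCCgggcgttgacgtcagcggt
Eif3j1: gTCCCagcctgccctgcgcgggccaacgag
Eif1b: gcggcgcgcggggCTaaatacgcggcgccg
Eif2s3y: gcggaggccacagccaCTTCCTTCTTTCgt
Eif3f, an eIF3 subunit (chr7:108934400-108934429, plus strand), had a run of 15 bases across the start, and a run that long was found in 1.01% of the 32851 promoter windows of the table. Eef1a1 (chr9:78481710-78481739, minus strand) had a run of 10 across its start, a length reached in 5.34% of windows. Eef1a2 (chr2:181157001-181157030, minus strand) had a run of 8 that began 15 bases before the start, and 12.003% of windows reached 8. Eef1b2 (chr1:63176816-63176845, plus strand) had a run of 4 and Eef2 (chr10:81176616-81176645, plus strand) of 2 in the window. Eif2s3y (chrY:1010580-1010609, plus strand) had a run of 12 that began at base 2 counted from the start, a length reached in 2.59% of windows. The start of that window is chrY:1010595, whereas the gene span given below begins at chrY:1010562. The whole window therefore lies inside that span and not at its first base. Eif3j1 had a run of 4 and Eif1b of 2. Of the 48 members with an entry, 11 had a run of at least 8 bases, and the median run was 4 in members and 4 in all windows. A member with more than 1 window was counted by its longest run, while the shares and median of all windows count each window singly. The member values can therefore only be raised by this against those of all windows. An annotated start can differ from the start used in cortex, so a short run says only that these letters are not in this window.

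When Fmr1 and Rps6kb1 were both missing, the TE of 3 members rose: Eif3j1, which encodes the loosely held eIF3 subunit j, Eif1b, a close copy of the start codon selection factor gene Eif1, and Eif2s3y, the Y-linked eIF2 gamma gene. None fell. The 3 calls are 5.00% of the 60 members, against 4.85% of all genes called in either direction in that comparison, and 1.85% called higher, so the share of members called in either direction is near the background. The tilt of the members was upward: 45 of 60 (75.0%) had a log2 fold change above 0 against 47.9% of all genes, and the median was 0.12 against -0.02. At an unadjusted p under 0.05, 13 members were higher and 1 lower, while among all genes 10.3% were higher and 14.6% lower.

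Eif3j1 lies at chr2:122028580-122053632 (GRCm38.p6). Its mRNA was at 65.4, 61.3, 64.4 and 48.2 CPM in WT and at 56.9, 46.7, 45.0 and 53.8 CPM in DKO, which overlapped. Its footprints were at 69.5, 70.9, 73.0 and 68.2 CPM in WT and at 154, 99.5 and 89.9 CPM in DKO, where each library lay above each WT library and the highest was that of batch 1. In FXS the footprints were at 73.4, 75.4, 108, 75.3 and 75.2 CPM and in S6K1 at 130, 76.1 and 85.5 CPM, the highest again that of batch 1, and both groups lay above WT throughout. The TE of Eif3j1 was higher in DKO by 0.60 ± 0.14 on the log2 scale (SE, adjusted p = 0.0216, edgeR quasi-likelihood test). Its footprints alone (0.37 ± 0.098, adjusted p = 0.113) and its mRNA alone (-0.23 ± 0.087, adjusted p = 0.114) did not pass, so the call rests on opposite shifts of the 2 assays. The gene has a near-identical copy, Eif3j2, not analysed here, and reads shared between them leave its level uncertain.

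Eif1b lies at chr9:120492606-120495327. Its mRNA was at 90.1, 88.9, 94.7 and 86.5 CPM in WT and at 81.5, 75.3, 84.2 and 76.4 CPM in DKO, all below WT. Its footprints were at 83.5, 116.3, 90.2 and 95.3 CPM in WT and at 126.7, 116.7 and 123.5 CPM in DKO, so the DKO libraries lay just above the highest WT library, that of batch 3, and well above the others. Reads shared with Eif1 leave its level uncertain. In FXS its footprints were between 98.7 and 125 CPM and its mRNA between 69.1 and 86.2 CPM, again below every WT library in mRNA. TE was higher in DKO by 0.51 ± 0.13 (SE, adjusted p = 0.0342), with 0.33 ± 0.099 in footprints (adjusted p = 0.146) and -0.18 ± 0.085 in mRNA (adjusted p = 0.205). In FXS the TE difference was 0.45 ± 0.12 and did not pass (adjusted p = 0.141).

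Eif2s3y lies at chrY:1010562-1049134. Its mRNA was at 56.7, 47.4, 46.0 and 48.3 CPM in WT and at 45.5, 36.9, 37.7 and 47.4 CPM in DKO. Its footprints were at 41.9, 47.7, 40.0 and 32.3 CPM in WT and at 83.5, 49.3 and 50.8 CPM in DKO. The footprint groups did not overlap, but the DKO library of batch 1 lay far above the other 2, and the mRNA groups overlapped. TE was higher by 0.49 ± 0.14 (SE, adjusted p = 0.0467), and neither footprints (0.25 ± 0.12, adjusted p = 0.315) nor mRNA (-0.25 ± 0.079, adjusted p = 0.0675) passed alone.

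**Figure D2:**
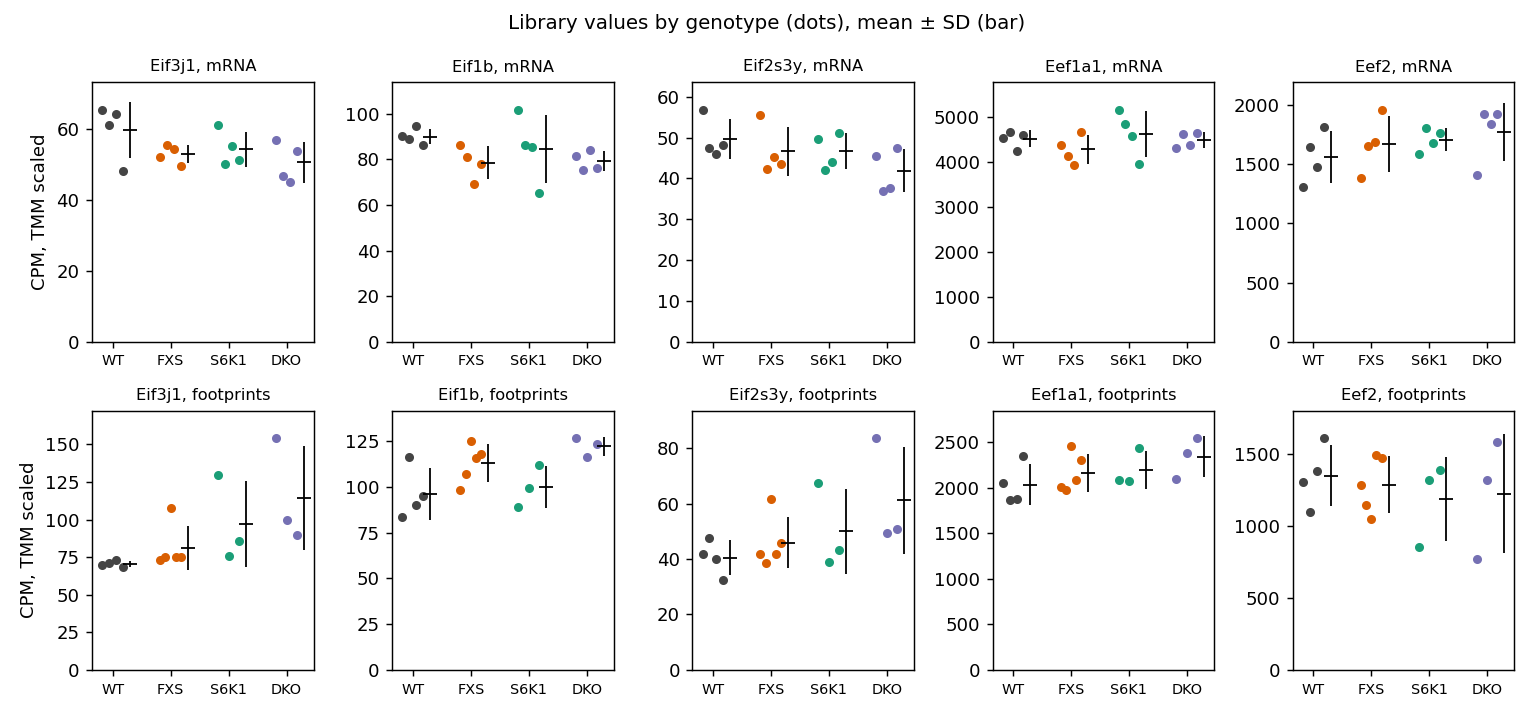
CPM of 5 members in each mRNA library (top) and each footprint library (bottom) by genotype, 1 dot a library in replicate order, with the mean ± SD as a bar; every axis starts at 0. Eif3j1 and Eif2s3y footprints show a single high DKO and S6K1 library, those of batch 1, and Eef2 footprints are lowest in the same libraries.

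These calls moved with single libraries. The count of members called was 0 without the mRNA libraries WT 2, WT 3 or DKO 3, or without the footprint libraries WT 2, DKO 2 or DKO 3. It was 1 without mRNA DKO 1 or DKO 2, and 5 without mRNA DKO 4. Eif3j1 kept its call in 9 of 15 such fits, Eif1b in 7 and Eif2s3y in 4, with the direction unchanged throughout. Without the 2 footprint libraries of batch 1, the count was 2 (Eif3j1 at 0.60 and Eif1b at 0.45), and Eif2s3y had an adjusted p of 0.0527. Within a batch, DKO minus WT footprints of Eif3j1 differed by 0.49 in batch 3 and 0.35 in batch 4 on the log2 scale, those of Eif1b by 0.01 and 0.41, and those of Eif2s3y by 0.05 and 0.49. Eif3j1 was thus higher to a like degree in both batches that hold both genotypes, and the other 2 genes mainly in batch 4. Each of these batches holds 1 DKO library, beside 1 WT library in batch 3 and 2 in batch 4. In mRNA, Eif3j1 differed by -0.20, -0.39, -0.51 and 0.16 in batches 5 to 8, Eif1b by -0.15, -0.24, -0.17 and -0.18, and Eif2s3y by -0.32, -0.36, -0.29 and -0.03.

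The members with the next smallest adjusted p in TE were Eif2s2 and Eif4e. Eif2s2, eIF2 beta, had footprints at 110, 123, 126 and 99.9 CPM in WT and at 235, 144 and 128 CPM in DKO, the highest in batch 1. Its mRNA was at 162, 156, 154 and 134 CPM in WT and at 139, 122, 117 and 139 CPM in DKO. The groups did not overlap in footprints and did in mRNA, and the TE difference of 0.39 ± 0.13 did not pass (adjusted p = 0.0731). Eif4e, the cap-binding protein, had footprints at 115, 125, 130.3 and 127 CPM in WT and at 183, 157 and 139 CPM in DKO, with a TE difference of 0.30 ± 0.10 that did not pass (adjusted p = 0.087). Eif2ak2, the kinase PKR that senses double-stranded RNA, had the largest TE difference of all members, 0.82 ± 0.35, at a low count and with an adjusted p of 0.142.

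By role, the largest median TE fold changes in DKO were in the group for start codon scanning and in that of eIF2 and eIF2-like factors. Close below, the 3 members of the eIF5, eIF5B and eIF6 group had a median of 0.24, with 2 above 0 and 0 called. Over all genes 47.9% were above 0, 1.85% were called higher and 10.3% were higher at an unadjusted p under 0.05, and groups this small carry no test. All 5 members of the eIF1 and eIF1A group had a TE fold change above 0, with a median of 0.28, 1 called (Eif1b) and 3 higher at an unadjusted p under 0.05. The lowest was Eif1ad, which is listed in this group but is not a gene of eIF1 or eIF1A, at 0.08 in TE and -0.06 in footprints. Eif1, the main start codon selection factor, was at 0.28 ± 0.11 (adjusted p = 0.123) and Eif1ax at 0.25 ± 0.12. All 6 members of the eIF2 and eIF2-like group were above 0, with a median of 0.27, 1 called (Eif2s3y) and 4 higher at an unadjusted p under 0.05. The 4 subunit genes of eIF2 were at 0.31 ± 0.13 (Eif2s1), 0.39 (Eif2s2), 0.13 (Eif2s3x) and 0.49 (Eif2s3y), and the other 2, Eif2a and Eif2d, encode separate tRNA-binding factors. In both groups no mRNA fold change was above 0, with medians of -0.14 and -0.15, against a median of 0.00 over all genes to 2 decimals. Footprint medians were 0.21 and 0.15, and no mRNA or footprint difference in these groups passed. The lower mRNA was not seen in every batch: in batch 8, Eif1ax (0.29), Eif1ad (0.02), Eif2s3x (0.20), Eif2s1 (0.13), Eif2a (0.08) and Eif2s2 (0.04) were above WT on the log2 scale.

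In the eIF3 complex, 10 of 13 members had a TE above WT, with a median of 0.11 and Eif3j1 as the 1 call. Eif3e, another known TOP mRNA, was at 0.36 ± 0.14 and Eif3m at 0.32 ± 0.14 (adjusted p = 0.106 and 0.15), and Eif3d, the subunit that can bind caps itself, was lowest at -0.14. The core subunits Eif3a, Eif3b and Eif3c were at 0.20, 0.11 and -0.10. The 10 members of the eIF4 group had a median of 0.11 with no call. Footprints of Eif4a1 (0.22 ± 0.091) and of Eif4e3, a weak cap-binding relative of eIF4E (0.36 ± 0.13), stood higher without passing (adjusted p = 0.243 and 0.19). The 5 members of eIF2B had a median of 0.10, and the 4 eIF2 kinases also 0.10, with 3 above 0 and Eif2ak3 at -0.28.

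The rest of the members with the smallest unadjusted p-values differed by less. In footprints, Eif5a2 stood at 0.28 ± 0.10 (adjusted p = 0.203) and Eif4e2, a cap-binding relative of eIF4E linked to silencing of mRNAs, at 0.23 (adjusted p = 0.262). In mRNA, Eif4h, which aids the eIF4A helicase, stood at 0.14 ± 0.060 (adjusted p = 0.151) and Eif2b4, a subunit of eIF2B, at 0.19 (adjusted p = 0.165). Eif2a stood at 0.24 in TE (adjusted p = 0.197).

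The eIF4E-binding proteins showed no common direction. The 4 genes of eIF4E-binding proteins had a median TE fold change of -0.10 in DKO, with 2 above 0. Eif4ebp2, the main 4E-BP of brain, was at 0.08 in TE, with footprints at 0.28 ± 0.11 (adjusted p = 0.242). Eif4ebp3 had the lowest footprint difference of all members, -0.99 ± 0.58, from fewer than 1 CPM of footprints in WT, and did not pass (adjusted p = 0.379). Eif5, which activates GTP hydrolysis on eIF2, was at 0.36 ± 0.16 and Eif6 at -0.35 ± 0.16 in TE, neither of which passed.

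**Figure D3:**
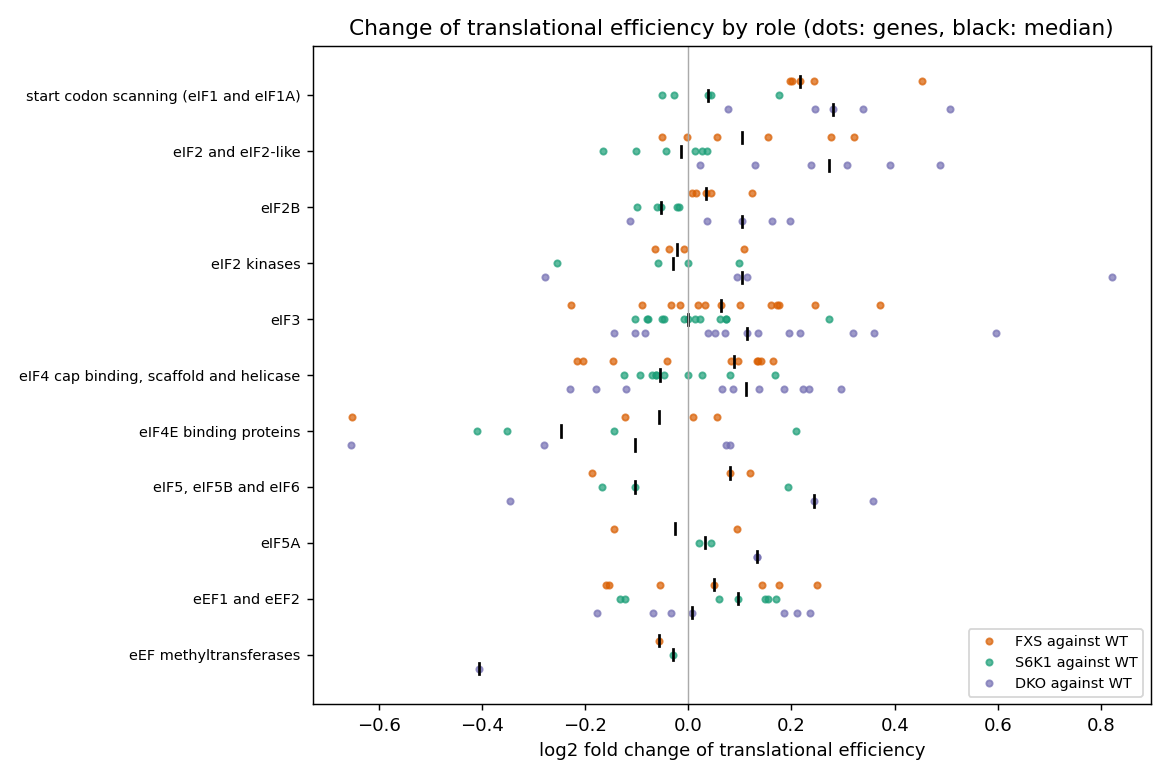
Log2 fold change of TE against WT by role group, 1 dot a gene, with the group median as a black tick, for FXS, S6K1 and DKO. The DKO medians of the eIF1 and eIF1A group and of the eIF2 and eIF2-like group stand at 0.28 and 0.27, and that of eEF1 and eEF2 at 0.01.

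TE fold changes of the elongation factors lay on both sides of 0 in DKO, and none had an unadjusted p under 0.05. In DKO the 7 eEF1 and eEF2 members had a median TE fold change of 0.01, with 4 above 0 and none called. Eef1a1 stood at 0.24 ± 0.12 (adjusted p = 0.227), Eef1b2 at 0.21 and Eef1g at 0.19, while Eef1a2 stood at -0.18 ± 0.11 (adjusted p = 0.325), Eef2 at -0.07 ± 0.11 and Eef1d, the delta subunit of eEF1B, at -0.03. Eef1e1, a part of the multi-synthetase complex, was at 0.01. The 8 known TOP mRNAs had a median TE of 0.20, with 6 above 0, none called and 1 (Eif3e) higher at an unadjusted p under 0.05. The fitted footprint fold change, with batch as a term, was above 0 in 8 of 8, with a median of 0.14, and that of mRNA in 3 of 8, with a median of -0.02. Eef2 is counted there at 0.12 although its mean footprint level was lower in DKO (1223 CPM) than in WT (1346 CPM), and its DKO group includes the batch 1 library, which has no WT beside it.

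Eef1a1 footprints were at 2097, 2383 and 2542 CPM in DKO, against 1860 to 2350 CPM in WT, and its mRNA at 4307 to 4646 CPM against 4241 to 4669 CPM. Eef1a2 footprints were at 2469, 2868 and 3753 CPM in DKO against 3450 to 4035 CPM in WT, with the lowest library in batch 1. Both genes therefore overlapped with WT in both assays. Eef2 mRNA was at 1307, 1649, 1475 and 1817 CPM in WT and at 1414, 1923, 1844 and 1930 CPM in DKO, a fold change of 0.19 ± 0.067 that did not pass (adjusted p = 0.102). Its footprints were at 1300.5, 1094, 1382 and 1606 CPM in WT and at 769, 1318 and 1581 CPM in DKO. The lowest of these was the batch 1 library, and the S6K1 library of batch 1 was also the lowest of its group at 855 CPM against 1313 and 1387 CPM.

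Neither mRNA nor footprints alone gave a call among members in DKO. In mRNA 0 of 60 passed, against 5.23% of all genes. An unadjusted p under 0.05 was reached by 5 higher members (12.2% of all genes) and 9 lower ones (10.2% of all genes), together 23.3% of members against 22.3% of all genes. With DESeq2 the mRNA calls were 2, Eef2 higher and Eif2s2 lower. In footprints 0 of 60 passed, against 0.366% of all genes, and with DESeq2 the call was 1, Eif3j1. Unadjusted, 11 members (18.3%) were higher, where 7.50% of all genes were, and 0 were lower, where 9.56% of all genes were. Footprints were above WT in 49 of 60 members (81.7%, against 48.0% of all genes), with a median of 0.11 against -0.01. The median stayed above 0 in all 15 alternative fits with its lowest value, 0.04, without footprint library WT 2 and a value of 0.14 without batch 1. Within batches it was 0.19 in batch 3 (1 DKO and 1 WT library), with 52 of 60 above 0. In batch 4 (1 DKO and 2 WT libraries) it was 0.08, with 43 of 60. Each value thus rests on a single DKO library. Against the same WT library of batch 3, the medians of FXS and S6K1 were also above 0, at 0.22 and 0.11. The mRNA medians within batches 5 to 8 were -0.04, -0.04, -0.03 and 0.05, with 24, 23, 26 and 39 of 60 above 0. In the same comparison oligodendrocyte markers were lower in footprints, and mRNA of 3 haemoglobin genes summed to 659 to 978 CPM in DKO against 1153 to 1750 CPM in WT, without a call. Of 5 neuronal markers, 1 was called higher in mRNA (median fold change 0.19) and 1 lower in TE (median -0.23), and of 5 endothelial markers 1 was called lower in mRNA (median -0.37). The part of such shifts in the members' values was not tested.

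With mRNA and footprints set side by side, 29 of the 60 members (48.3%) had a lower mRNA and a higher footprint level in DKO than in WT, a combination seen in 27.8% of all genes. Higher in both were 20 members (33.3%, against 20.4% of all genes), lower in both 5, and higher in mRNA only 6. Members thus exceeded all genes in each combination with higher footprints, not only in that of opposite shifts. Footprints were above WT in 49 of 60 members. Whether opposite shifts were more frequent than this footprint tilt alone would give was not tested. Most single shifts were small, with a median SE of 0.074 in mRNA and 0.098 in footprints.

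**Figure D4:**
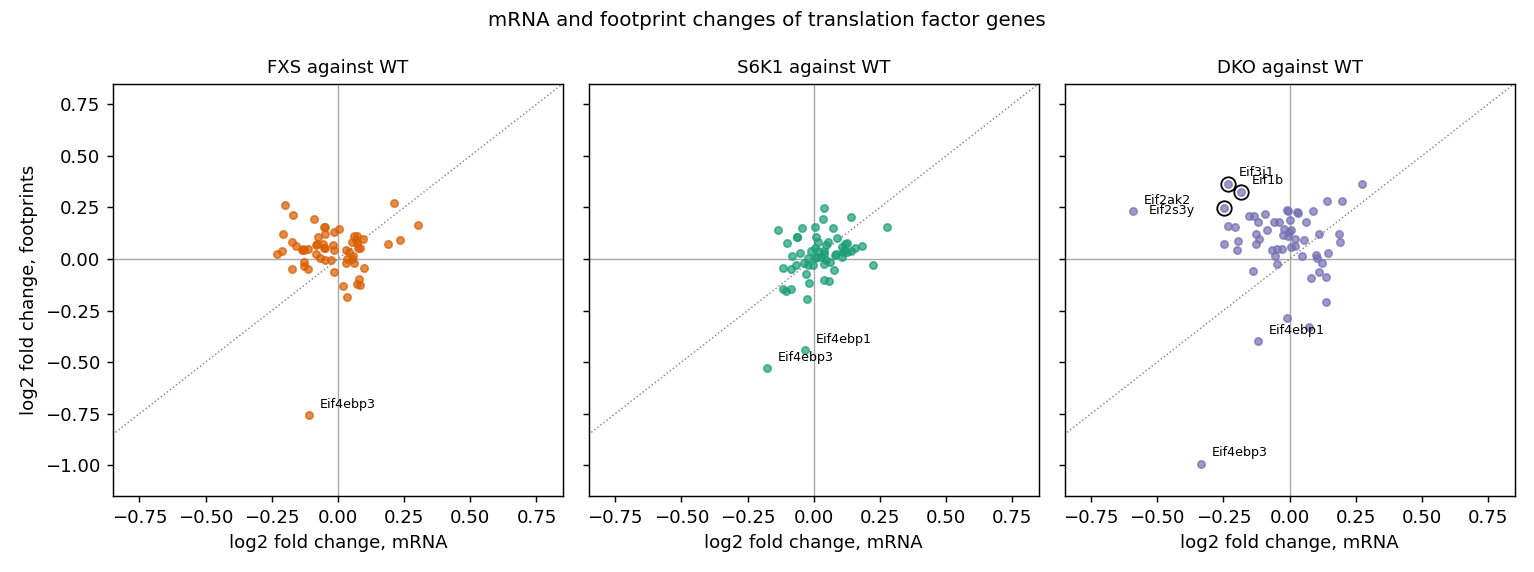
Footprint against mRNA log2 fold change of the 60 members in FXS, S6K1 and DKO, each against WT, with the dotted line where both are equal; rings mark the 3 members with TE called in DKO. Points in the upper left quadrant number 26 in FXS, 9 in S6K1 and 29 in DKO.

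The single mutants gave no call among members. These contrasts use the same WT libraries as the DKO contrast, so likeness between them is in part built in, and their values are only set side by side. In FXS, 0 of 60 members passed in mRNA, footprints or TE, where 0.155%, 0.165% and 0.0952% of all genes were called. Unadjusted, with p under 0.05, 1 member was higher and 5 lower in mRNA (6.77% and 5.95% of all genes). The same counts were 4 and 1 in footprints (4.09% and 5.78%) and 6 and 1 in TE (5.66% and 7.70%). The DESeq2 calls were 0, 0 and 1, the last being Eif1b in TE. TE was above WT in 39 members (65.0%, against 47.7% of all genes), with a median of 0.06 against -0.01. The TE differences of the 3 genes above were 0.37 ± 0.12 for Eif3j1 (adjusted p = 0.221), 0.45 for Eif1b and 0.28 for Eif2s3y. All 5 members of the eIF1 and eIF1A group were above 0, with a median of 0.22. The footprint median of 0.05 rested on batch 3: it was 0.22 within that batch, -0.01 in batch 2 and 0.01 in batch 4, and 0.00 when batch 3 was left out.

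In S6K1, 0 of 60 members passed in mRNA, footprints or TE, where 0.0211%, 0.00717% and 0.0293% of all genes were called, and the DESeq2 calls were 0 in each. Unadjusted, with p under 0.05, 6 members were higher and 0 lower in mRNA (3.74% and 3.63% of all genes). The counts were 1 and 1 in footprints (4.22% and 4.52%) and 0 and 0 in TE (3.17% and 4.34%). The TE median was -0.02, equal to that of all genes to 2 decimals. Eif3j1 stood at 0.27 ± 0.14 (adjusted p = 0.696), Eif1b at 0.18 and Eif2s3y at 0.04. Eef2 had the smallest adjusted p in footprints, at 0.20 ± 0.089 (adjusted p = 0.536) with batch as a term. The unadjusted means have the opposite order, 1185 CPM in S6K1, with 855 CPM in the batch 1 library, and 1346 CPM in WT. Eif3c had the smallest adjusted p in mRNA, at 0.14 (adjusted p = 0.644).

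Whether loss of S6K1 moved the members away from the FXS state was read from DKO against FXS, which asks what Rps6kb1 loss adds in Fmr1-deficient cortex. No member passed in mRNA, footprints or TE, where 0.0281%, 0.0143% and 0.0146% of all genes were called. Unadjusted, with p under 0.05, 0 members were higher and 1 lower in mRNA (5.21% and 4.59% of all genes). The counts were 0 and 0 in footprints (2.76% and 3.43%) and 1 and 0 in TE (4.45% and 3.90%), and the DESeq2 calls were 0 in each. The gene was Eif2ak2 in both, with -0.67 ± 0.26 in mRNA (adjusted p = 0.408) and 0.86 ± 0.34 in TE (adjusted p = 0.567). Footprint fold changes were above 0 in 52 of 60 members (86.7%, against 48.2% of all genes), with a median of 0.06 against -0.01, and those of TE in 41 (68.3%, against 47.5%). The footprint median ranged from 0.02 to 0.12 over 16 alternative fits. Within batches, the footprint medians against WT were 0.19 for DKO and 0.22 for FXS in batch 3, and 0.08 and 0.01 in batch 4. DKO thus stood above FXS in batch 4 but not in batch 3, each with a single DKO library. The other DKO library, of batch 1, has no FXS library beside it. TE of Eif3j1 differed by 0.22 ± 0.13 (adjusted p = 0.653), of Eif1b by 0.05 and of Eif2s3y by 0.21, each in the direction away from WT in this fit. Footprints of these genes in batch 3 were lower in DKO than in FXS. Eif3j1 was at 99.5 against 107.5 CPM, Eif1b at 116.7 against 125.2 CPM and Eif2s3y at 49.3 against 61.5 CPM. In batch 4 the DKO library (89.9, 123.5 and 50.8 CPM) lay above both FXS libraries for each gene. The interaction, which tests whether Fmr1 loss acts differently with and without Rps6kb1, called 0 members in any measure by edgeR or DESeq2, as it called 0.00% of all genes by edgeR. Unadjusted, with p under 0.05, it had 0 higher and 1 lower in mRNA (1.84% and 1.65% of all genes), 1 and 0 in footprints (1.30% and 1.76%) and 2 and 0 in TE (2.36% and 1.78%). A higher TE of these 3 genes in DKO is therefore not shown to differ from that in FXS.

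The authors' deposited tables, made with their own fit, list fold changes for DKO and for FXS against WT. In their deposited table for TE in DKO, Eif3j1 was the 1 member called (0.61, adjusted p = 0.0461), with Eif1b at 0.52 (adjusted p = 0.0884) and Eif2s3y at 0.50 (adjusted p = 0.176), and 0.725% of all genes were called. In the authors' deposited table for DKO footprints, Eif3j1 was again the 1 member called (0.36, adjusted p = 0.0364), against 2.47% of all genes. Their deposited mRNA table for DKO called Eef2 higher (0.18, adjusted p = 0.0455) and Eif1 (-0.20), Eif2s2 (-0.24) and Eif2s3y (-0.25) lower, against 9.40% of all genes. Their deposited FXS tables called no member, against 2.72% of all genes in mRNA, 1.18% in footprints and 0.0167% in TE. All these shares are over genes with an adjusted p. In FXS that was given for 52 of 60 listed members in mRNA and 57 of 59 in footprints. In DKO mRNA it was given for 56 of 60, so the members without it could not be called.

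Of 32 further genes of the translation pathway outside the family names, 3 had a higher TE in DKO and none a lower one, where 1.85% of all genes were called higher and 4.85% either way. Unadjusted, with p under 0.05, 10 of the 32 were higher (10.3% of all genes) and 3 lower (14.6% of all genes). The 3 called higher were Pabpc1, the main poly(A)-binding protein (0.56 ± 0.13, adjusted p = 0.0215), Paip2, which holds that protein away from the poly(A) tail (0.51 ± 0.14, adjusted p = 0.0398), and Pdcd4, an inhibitor of eIF4A and a known S6K1 substrate (0.42 ± 0.095, adjusted p = 0.0216). Pdcd4 mRNA fell by 0.28 ± 0.067 (adjusted p = 0.0199), and mRNA of Eefsec, the elongation factor for selenocysteine, rose by 0.36 ± 0.088 (adjusted p = 0.0225), the 2 mRNA calls in the list, where 5.23% of all genes were called. No footprint difference in these 32 genes passed, and none of them was called in FXS, S6K1 or DKO against FXS. Their median TE fold change in DKO was 0.08, against 0.12 in the members and -0.02 in all genes.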

How the data were processed

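The authors deposited raw read counts per gene over coding sequences, and tables of log2 fold changes, standard errors, a score (fold change over its error) and p-values, with a mean normalized signal that was not printed. Per the submitters' processing notes, cutadapt 2.0, Bowtie2, TopHat2, RSEM and the mm10 build were used; their settings are not given in the sources used here. Counts were tested with edgeR 4.0.16 (TMM scaling, low-count filter by genotype, robust quasi-likelihood F-test), with genotype and batch as terms, over 14215 genes in mRNA and 13953 in footprints. TE was the footprint contrast minus the mRNA contrast in 1 model of 31 libraries over 13654 genes. P-values were adjusted by Benjamini-Hochberg over all genes, with calls under 0.05, and the code was checked on simulated counts. CPM uses TMM-scaled library sizes, and WT TE the ratio of group means. The members and lists were chosen with earlier results of these data known. Members were named if called, then by the smallest unadjusted p in DKO against WT up to 25, with the extremes of WT TE and all eEF1 and eEF2 genes; the part of that rule on mRNA per coding length was not applied, as coding lengths were not used here. Members named outside it (Eif1a, Eif1ad, Eif2d, Eif2s3x, Eif3d, Eif3f, Eif3h, Eif4a2 and the members at the CPM minimum) and the pairs of related genes were chosen after their values were seen. Gene positions and start windows came from RefSeq, GRCm38.p6. Alternatives were RLE scaling, no filter, DESeq2 1.42.0, limma voom 3.58.1, no batch term, only the genotypes compared, and libraries or batches left out.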

Additional observations from a re-analysis of the deposited data

Results flagged for a closer look

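In 3 cases, a group of libraries held a value far from the rest among 48 groups checked in 8 genes, where chance marks about 1 in 20. Footprints of Eif3j1 in FXS library 3 (batch 3) were at 107.5 CPM, against 73.4 to 75.4 CPM in the other FXS libraries. Footprints of Eif2s2 in the same library were at 164.6 CPM, against 109 to 120.2 CPM in the others. Eef2 mRNA in DKO library 1 (batch 5) was at 1414 CPM, below the other DKO libraries at 1844 to 1930 CPM. The batch 5 library was also the lowest for Eef2 mRNA in WT (1307 CPM), FXS (1385 CPM) and S6K1 (1588 CPM), so the low level is shared by that batch. Groups of 3 libraries, such as DKO and S6K1 footprints, could not be checked this way.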

How the results depend on the processing

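The count of members with TE called in DKO against WT, 3 as reported, was 5 with DESeq2, 0 with no batch term, 1 with only these genotypes, 1 without mRNA batch 5, and 1 without footprint batch 3 (an alternative chosen after seeing the data, like the one without footprint batch 1). It ranged from 0 to 5 over the 15 fits that each left out 1 library. The adjusted p ranged from 0.00318 to 0.106 for Eif3j1, from 0.0109 to 0.0954 for Eif1b and from 0.0227 to 0.231 for Eif2s3y over 24 alternatives, with the direction unchanged in all of them. DESeq2 called 1 member in TE in FXS (Eif1b), 1 in footprints in DKO (Eif3j1) and 2 in mRNA in DKO. For mRNA in DKO, the edgeR count of 0 became 0 to 5 when 1 library was left out. It was 5 without mRNA DKO 4 and 4 without mRNA WT 4, all lower. Only these genotypes gave 1 in mRNA in FXS (Eif1, lower). Every other count of members called stayed at 0 under the alternatives run. The cause of these shifts was not tested. The median TE fold change over members in DKO stayed between 0.08 and 0.19. No paired analysis was possible because the labels give no replicate numbers, other than the blocking by batch that every fit but the one with no batch term already has, where each mRNA batch holds 1 library of every genotype. The main limits are 3 DKO and 3 S6K1 footprint libraries, a footprint batch 1 without WT, and near-identical gene copies whose reads cannot be assigned with certainty.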
